A study of Homo sapiens with 8 samples.

Results

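Lysosome and autophagy genes were followed through RNA-seq of human pancreatic ductal adenocarcinoma (PDA) cells after knockdown of the homeobox transcription factor PDX1. The 36 genes were chosen by name from the 28520 rows of each deposited table, and each matched 1 row of its own. They comprised 15 genes of the lysosomal lumen (hydrolases and their cofactors), 8 genes of the lysosomal membrane and its proton pump, the transcription factors TFEB and TFE3, and 11 autophagy factors. Cells of 4 established lines, Panc8, HPAF-II, Panc.05.04 and Panc.10.05, received an siRNA against PDX1 or a control siRNA and were harvested 3 days later. There was 1 library per line and siRNA, 8 in all, so the lines served as the replicates. The number of siRNA sequences used against PDX1 is not given in the sources used here. Values are FPKM, fragment numbers corrected for transcript length and library size, so levels of different genes can be compared within a library. Series of 4 values run in the order Panc8, HPAF-II, Panc.05.04, Panc.10.05. Whether the tables of the 4 lines were scaled together is not stated, which limits every level set across lines.

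Lysosomes are acidic organelles in which hydrolases break down protein, glycan and lipid brought in by endocytosis and autophagy. A rotary proton pump, the V-ATPase, acidifies the lumen, and heavily glycosylated membrane proteins line it. TFEB and its relative TFE3 are released to the nucleus when the kinase complex mTORC1 is inactive and bind a CACGTG-centred element, the CLEAR motif, near the start of many lysosomal genes. Pancreatic cancer cells are known for high basal autophagy and for nuclear factors of the TFEB family that keep lysosomal genes active.

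PDX1 was at 0.372, 5.37, 0.416 and 0.0998 FPKM in the PDX1 siRNA libraries, against 0.914, 9.61, 1.41 and 0.188 FPKM in the control siRNA libraries, lower with PDX1 siRNA in all 4 lines. The knockdown was unequal, with PDX1 left at 40.7%, 55.9%, 29.5% and 53.1% of control. All 5 epithelial markers listed (KRT8, KRT18, KRT19, EPCAM, CDH1) were measured, between 4 and 5 of them at 1 FPKM or more in a library, and they summed to between 733 and 5117 FPKM. Fibroblast markers summed to at most 5.40 FPKM over 6 genes and endothelial markers to at most 0.832 FPKM over 4 genes. Of 5 macrophage and leukocyte markers with a row of their own, CD14 alone reached 1 FPKM, and the others, CSF1R, CD163, ITGAM and MSR1, stayed under 1 FPKM in every library. Between 11186 and 11477 rows of a library reached 1 FPKM.

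The promoters of the genes that carried CACGTG are shown first, because the CLEAR motif of TFEB and TFE3 is centred on it. RefSeq windows (GRCh38.p14, 250 bases before to 50 after the gene start) were found for 28 of the 36 genes, and CACGTG, a palindrome that reads the same on both strands, was present in 6 of them (21.4%): CTSA, CTSD, GAA, LAMP1, MCOLN1 and ATP6V0D1. Among all 27305 genes with a window 8.77% held it, and among the 8935 with a window that were also tested across lines 12.4% did. The longer core TCACGTG, searched on both strands and containing the first motif, was found in the same 6 genes. It was in 4.49% of all genes with a window and in 7.13% of those also tested across lines. By role the 6 were 3 of the 10 lumen genes with a window and 3 of the 5 membrane and pump genes, with 0 of the 11 autophagy factors and neither TFEB nor TFE3. A match is a description of the letters in the window and says nothing of binding or of which factor could bind. The 4 genes with more than 1 copy are printed from 200 bases before the start to 20 after it, on the plus strand, 5′ to 3′, with CACGTG in capitals.
LAMP1, chr13:113297039-113297258: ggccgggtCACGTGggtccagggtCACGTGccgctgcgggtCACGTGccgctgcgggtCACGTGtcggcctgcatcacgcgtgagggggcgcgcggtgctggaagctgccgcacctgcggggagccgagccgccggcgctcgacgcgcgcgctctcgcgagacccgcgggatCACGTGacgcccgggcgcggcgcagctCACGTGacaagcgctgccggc
GAA, chr17:80101381-80101600: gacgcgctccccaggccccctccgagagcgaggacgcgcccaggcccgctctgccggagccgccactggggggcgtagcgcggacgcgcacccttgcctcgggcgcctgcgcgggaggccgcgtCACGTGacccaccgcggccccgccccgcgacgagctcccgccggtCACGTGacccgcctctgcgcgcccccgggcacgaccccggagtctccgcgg
MCOLN1, chr19:7522424-7522643: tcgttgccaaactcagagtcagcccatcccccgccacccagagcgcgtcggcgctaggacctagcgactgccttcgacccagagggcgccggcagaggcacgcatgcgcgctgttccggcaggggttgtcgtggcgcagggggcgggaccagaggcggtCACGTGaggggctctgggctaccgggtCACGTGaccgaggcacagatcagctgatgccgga
CTSA, chr20:45891135-45891354: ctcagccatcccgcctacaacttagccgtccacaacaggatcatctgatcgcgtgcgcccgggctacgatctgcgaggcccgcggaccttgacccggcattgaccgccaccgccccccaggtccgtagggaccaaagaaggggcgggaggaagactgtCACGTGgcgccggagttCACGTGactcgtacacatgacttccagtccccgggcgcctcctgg
LAMP1 held 6 copies, 4 of them in a closely spaced row, and GAA, MCOLN1 and CTSA held 2 each.

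All 36 genes passed the filter of a mean of at least 1 FPKM over the 8 libraries, and none was listed at 0 in any library. The most abundant was CTSD, an aspartic protease, which was at 1004, 390.1, 249 and 271 FPKM in the PDX1 siRNA libraries, against 969.6, 415, 356 and 250.4 FPKM in the control siRNA libraries. SQSTM1, the autophagy cargo receptor p62, was at 255, 314, 787 and 405 FPKM in the PDX1 siRNA libraries, against 198, 235, 757 and 423 FPKM in the control siRNA libraries. Both were among the high genes in every line, as the plot of levels shows. The least abundant on average was TECPR2, a tectonin-domain protein that binds LC3-family proteins, followed by TFEB. Of the 36 genes, 26 had a line mean that varied less than 4-fold between the highest and the lowest line (72.2%, against 67.3% of all genes tested), and 5 varied at least 10-fold (13.9%, against 19.0%). These 5 were CTSH, PSAP, CTSS, CTSL and GAA, all of the lumen.

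**Figure D1:**
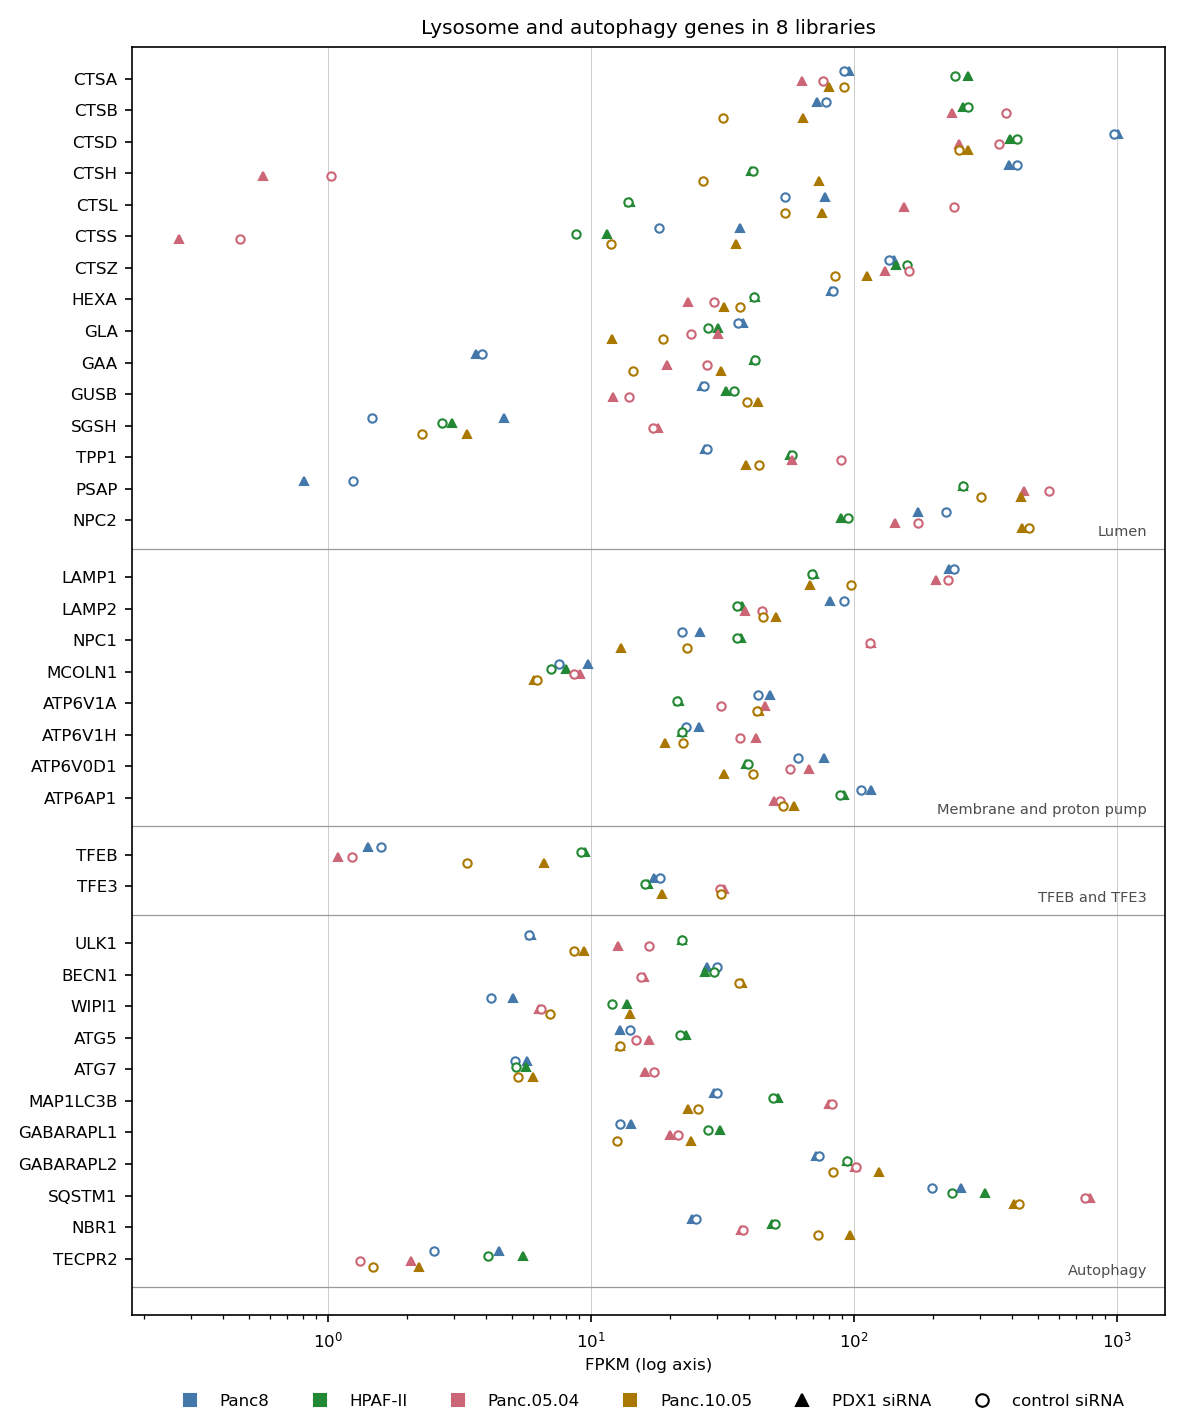
FPKM on a log axis for each of the 36 genes, with triangles for PDX1 siRNA libraries, open circles for control siRNA libraries and a colour for each line. PSAP in Panc8 (0.811 FPKM with PDX1 siRNA and 1.25 FPKM with control siRNA) and CTSH and CTSS in Panc.05.04 lie far to the left of the same gene in the other lines.

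PSAP encodes prosaposin, the precursor of the saposins that help hydrolases reach sphingolipids. PSAP was at 0.811, 259.7, 443 and 432 FPKM in the PDX1 siRNA libraries, against 1.25, 259, 551 and 304 FPKM in the control siRNA libraries. It was thus near 1 FPKM in both Panc8 libraries and at 259 FPKM or more in the other 6 libraries, with no overlap. Its row (XLOC_003356) lies on chromosome 10 between 71816298 and 71851325 of hg38. The next genes along the chromosome were looked at after this value was seen. ASCC1, a subunit of a transcription coactivator complex, had 0 FPKM with PDX1 siRNA and 0.0720 FPKM with control siRNA in Panc8, and between 9.61 and 20.3 FPKM in the other lines. ANAPC16, a subunit of the anaphase-promoting complex, had 0.0863 FPKM with PDX1 siRNA and 0.0735 FPKM with control siRNA in Panc8, and between 15.4 and 50.7 FPKM elsewhere. C10orf54 (VSIR in RefSeq), CHST3 and SPOCK2 were also below 0.1 FPKM in both Panc8 libraries, although SPOCK2 was at most 1.71 FPKM in any line. The 6 genes from C10orf54 to ANAPC16 span 488 kb of RefSeq annotation (GRCh38.p14), and the highest value in Panc8 among the 5 other than PSAP was 0.0863 FPKM. On either side SLC29A3 and DDIT4 were expressed in Panc8, with 7.37 and 107 FPKM with PDX1 siRNA and 5.62 and 145 FPKM with control siRNA. CDH23, whose annotation begins between SLC29A3 and C10orf54, was at 0 FPKM in both Panc8 libraries. It was at most 0.121 FPKM in the other lines, so these values do not set the edge on that side. Of 4520 genes at 10 FPKM or more in all 6 libraries of the other lines, 9 (0.199%) were below 2 FPKM in both Panc8 libraries, PSAP among them.

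**Figure D2:**
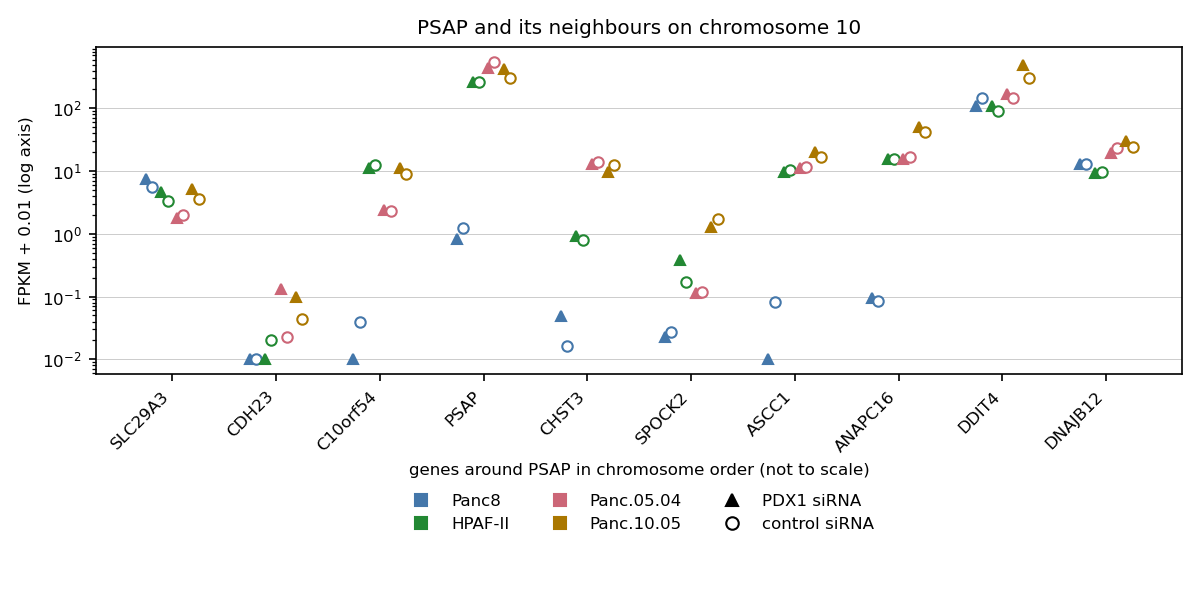
FPKM + 0.01 on a log axis for PSAP and 9 other genes in their order along chromosome 10 (not to scale), with triangles for PDX1 siRNA, open circles for control siRNA and a colour for each line. From C10orf54 to ANAPC16 the Panc8 libraries sit below those of the other lines, while SLC29A3, DDIT4 and DNAJB12 overlap with them or lie near them. CDH23 is at most 0.121 FPKM in any library.

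Cathepsin H, a cysteine aminopeptidase encoded by CTSH, was at 389, 40.6, 0.564 and 73.7 FPKM in the PDX1 siRNA libraries, against 418, 41.4, 1.03 and 26.6 FPKM in the control siRNA libraries. Panc8 stood highest and Panc.05.04 lowest, with a ratio of line means of 507. Cathepsin S, a cysteine protease known for antigen processing and encoded by CTSS, was at 36.8, 11.5, 0.271 and 35.4 FPKM in the PDX1 siRNA libraries, against 18.1, 8.76, 0.464 and 11.9 FPKM in the control siRNA libraries. Panc.05.04 was again lowest, under 0.5 FPKM in both libraries. In Panc.05.04, 73 of 4727 genes (1.54%) that had 10 FPKM or more in the other 6 libraries were below 2 FPKM in both of its own, and CTSH was the only one of the 36. Cathepsin L, encoded by CTSL, was at 77.2, 14.0, 155 and 75.2 FPKM in the PDX1 siRNA libraries, against 54.4, 13.8, 240.3 and 54.8 FPKM in the control siRNA libraries, highest in Panc.05.04 and lowest in HPAF-II. The acid alpha-glucosidase GAA, which degrades glycogen, had its lowest level in Panc8, 3.66 FPKM with PDX1 siRNA and 3.85 FPKM with control siRNA.

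The cysteine protease cathepsin B, encoded by CTSB, was at 71.9, 259.7, 235 and 64.0 FPKM in the PDX1 siRNA libraries, against 78.5, 269.9, 379 and 31.6 FPKM in the control siRNA libraries. Panc.05.04 and HPAF-II stood high and Panc8 and Panc.10.05 low. The alpha-galactosidase A gene, GLA, was at 37.7, 30.4, 30.5 and 11.96 FPKM in the PDX1 siRNA libraries, against 36.3, 27.8, 24.1 and 18.8 FPKM in the control siRNA libraries, a span of 11.96 to 37.7 FPKM. HEXA, the alpha subunit of beta-hexosaminidase, ran from 23.3 to 83.4 FPKM over the 8 libraries, the beta-glucuronidase GUSB from 12.1 to 43.3 FPKM and cathepsin Z (CTSZ) from 84.8 to 162 FPKM. CTSA, a carboxypeptidase that also shields other lysosomal enzymes from breakdown, ran from 63.2 to 270.03 FPKM, with HPAF-II above the other lines. The interval of the CTSA row also takes in PLTP, which has a row of its own. PLTP was at 88.3 FPKM with PDX1 siRNA and 108 FPKM with control siRNA in Panc8. CTSZ was one of 7 genes whose line means stayed within 2-fold (19.4% of the 36, against 30.2% of all genes tested), along with MCOLN1, ATP6V1H, ATP6V0D1, TFE3, ATG5 and GABARAPL2.

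In the membrane, LAMP1 was at 229, 70.2, 204 and 68.0 FPKM in the PDX1 siRNA libraries, against 239, 69.2, 227 and 97.5 FPKM in the control siRNA libraries. Panc8 and Panc.05.04 were above 200 FPKM and HPAF-II and Panc.10.05 below 100 FPKM. LAMP2, whose splice forms include the receptor of chaperone-mediated autophagy, ran from 35.8 to 91.7 FPKM. NPC1 was at 25.9, 37.2, 116 and 13.0 FPKM in the PDX1 siRNA libraries, against 22.2, 36.0, 115 and 23.1 FPKM in the control siRNA libraries, highest in Panc.05.04. Among the pump subunits, ATP6AP1, an accessory subunit, ran from 49.6 to 116 FPKM, ATP6V0D1 of the membrane sector from 32.1 to 76.8 FPKM and ATP6V1H, a regulatory subunit of the cytosolic sector, from 19.1 to 42.2 FPKM.

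The comparison across lines asked which genes shifted in a shared direction in the 4 lines when PDX1 was knocked down. None of the 36 passed. By limma, with the line as block and an adjusted p of 0.05 over all 12110 genes tested, 0 of 36 were higher and 0 lower, against 0.0% of all genes in each direction, and the smallest adjusted p among the 36 was 0.898. PDX1, the silenced gene, did not pass either (limma adjusted p = 0.898). Failing this threshold therefore does not show that a gene was unchanged. Without adjustment, 1 of 36 was higher at p under 0.05 in limma (TECPR2, background 2.02%) and 0 were lower (background 1.61%). In bulk RNA a difference in the amount of RNA per cell and in the make-up of the cell population cannot be told apart. The TECPR2 row (XLOC_007620) lies on chromosome 14 between 102362963 and 102502481 of hg38. TECPR2 was at 4.45, 5.51, 2.07 and 2.21 FPKM in the PDX1 siRNA libraries, against 2.52, 4.06, 1.33 and 1.48 FPKM in the control siRNA libraries. It was higher with PDX1 siRNA in each of the 4 lines, with log2 ratios of FPKM + 1 of 0.63, 0.36, 0.40 and 0.37, although the values of the 2 treatments overlap when lines are pooled. The mean log2 ratio was 0.44 ± 0.13 (SD, n = 4 lines; limma adjusted p = 0.898). ANKRD9, a gene whose annotation overlaps that of TECPR2, was at 30.8, 54.4, 29.8 and 16.5 FPKM in the PDX1 siRNA libraries, against 27.2, 64.8, 34.9 and 15.3 FPKM in the control siRNA libraries, higher with PDX1 siRNA in Panc8 and Panc.10.05 and lower in HPAF-II and Panc.05.04.

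Besides TECPR2, 2 of the 36 were higher in 4 of 4 lines, SGSH and ATP6V1A, which makes 3 (8.33%, against 7.45% of all genes tested). TPP1 and NPC2 were lower in 4 of 4 lines (5.56%, against 5.8%). SGSH, a sulfatase of heparan sulfate breakdown, was at 4.68, 2.96, 18.0 and 3.37 FPKM in the PDX1 siRNA libraries, against 1.46, 2.72, 17.2 and 2.27 FPKM in the control siRNA libraries. Panc8 was the line with a large difference, and the mean log2 ratio was 0.44 ± 0.53 (SD, n = 4; limma adjusted p = 0.898). The interval of the SGSH row (chromosome 17, 80169992 to 80220400 of hg38) also takes in CARD14, which has a row of its own. CARD14 was at 0.319 FPKM with PDX1 siRNA and 0.439 FPKM with control siRNA in Panc8. SLC26A11, whose row begins where that of SGSH ends, was at 0.276 FPKM with PDX1 siRNA and 0.0820 FPKM with control siRNA in Panc8, higher like SGSH. Without Panc8 the mean log2 ratio of SGSH was 0.19. ATP6V1A, the catalytic subunit of the proton pump, was at 47.7, 21.6, 45.9 and 43.4 FPKM in the PDX1 siRNA libraries, against 43.0, 21.2, 31.1 and 42.8 FPKM in the control siRNA libraries, and its mean log2 ratio was 0.19 ± 0.25 (SD, n = 4) and 0.065 without Panc.05.04. NPC2, the lumenal cholesterol carrier that hands its cargo to NPC1, was at 176, 89.1, 143 and 434 FPKM in the PDX1 siRNA libraries, against 223, 94.4, 175 and 464 FPKM in the control siRNA libraries. Its mean log2 ratio was -0.20 ± 0.13 (SD, n = 4; limma adjusted p = 0.898). TPP1, a tripeptidyl peptidase, was at 27.1, 57.1, 58.2 and 38.9 FPKM in the PDX1 siRNA libraries, against 27.5, 58.0, 89.0 and 43.3 FPKM in the control siRNA libraries. Panc.05.04 had the widest gap between its libraries, and the other 3 lines had log2 ratios of -0.02, -0.02 and -0.15. The mean log2 ratio of TPP1 was -0.20 ± 0.28 (SD, n = 4) and -0.065 without Panc.05.04. Over all 36 genes the median of the mean log2 ratios was 0.03, against 0.01 over all genes tested.

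**Figure D3:**
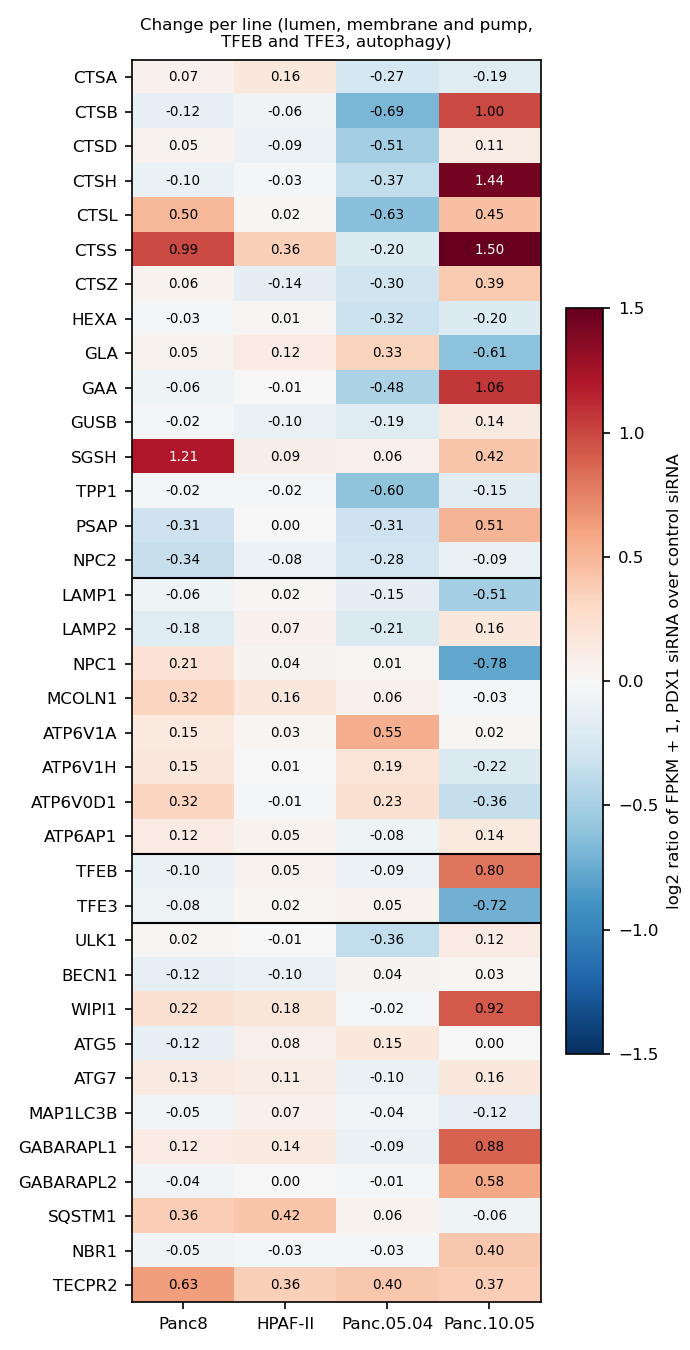
Log2 ratio of FPKM + 1, PDX1 siRNA over control siRNA, for the 36 genes (down the page) in the 4 lines (across), red for higher and blue for lower with PDX1 siRNA. Signs differ between lines in most rows, and TECPR2 in the last row is between 0.36 and 0.63 in all 4.

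Within a line, the comparison asked how far the 2 libraries of that line differed. With 1 library per siRNA no test was possible, so a gene was counted when the ratio of FPKM + 1 reached 1.5-fold and at least one of the libraries held 1 FPKM or more of it. The counts are given with the share of all such genes past the same size. Panc8 had 3 of 36 higher (background 3.59%) and 0 lower (1.27%). HPAF-II had 0 higher (0.743%) and 0 lower (0.585%). Panc.05.04 had 0 of 35 higher (1.61%) and 3 lower (2.35%), and Panc.10.05 had 7 of 36 higher (10.2%) and 3 lower (8.28%). At 2-fold either way the counts were 1 in Panc8 (1.89%), 0 in HPAF-II (0.358%), 0 in Panc.05.04 (1.04%) and 3 in Panc.10.05 (4.8%). The authors' deposited tables gave an unadjusted p under 0.05 to 3 of the 36 in Panc8 (3.04% of all rows they tested), 0 in HPAF-II (1.59%), 4 of 35 in Panc.05.04 (3.23%) and 4 of 36 in Panc.10.05 (5.02%), with 0 at a q of 0.05 in any line.

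In Panc.05.04 genes of the lysosomal lumen were lower with PDX1 siRNA. Of the 15, 13 were lower, with a median log2 ratio of -0.31, against 0.03 for all genes tested in that line. By any size 23 of the 35 measured genes were lower, and 42.4% of all genes in that line. CTSB had 235 FPKM with PDX1 siRNA and 379 FPKM with control siRNA in Panc.05.04, a log2 ratio of -0.69. CTSL had 155 FPKM with PDX1 siRNA and 240.3 FPKM with control siRNA, a log2 ratio of -0.63, and TPP1 had 58.2 FPKM with PDX1 siRNA and 89.0 FPKM with control siRNA, a log2 ratio of -0.60. These 3 were the genes past 1.5-fold. CTSD (-0.51), GAA (-0.48), CTSH (-0.37), HEXA (-0.32), PSAP (-0.31) and CTSZ (-0.30) followed on the log2 scale. The exceptions were GLA at 0.33 and SGSH at 0.06. CTSH and CTSS, both with low levels in this line, are among the 13.

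For membrane and pump genes the median in Panc.05.04 was 0.04. Of these 8, 3 were lower (42.4% of all genes), and ATP6V1A, at 45.9 FPKM with PDX1 siRNA and 31.1 FPKM with control siRNA, had the largest ratio, 0.55. The authors' deposited table gave unadjusted p of 0.04285 for CTSB, 0.03055 for CTSL, 0.03115 for TPP1 and 0.0456 for ATP6V1A in this line, each with q of 0.999. Among 39 other hydrolase and cofactor genes tested, from a list separate from the 36, 33 were lower in Panc.05.04 with a median of -0.22. These genes were read in the same libraries as the 36 and were listed with earlier results known. They are therefore no independent check of the lumen genes. Other lysosomal membrane proteins and other V-ATPase subunits were also below 0 in this line, with medians of -0.07 (22 of 30 lower) and -0.07 (8 of 14 lower). In the other lines 18 (Panc8), 25 (HPAF-II) and 11 (Panc.10.05) of the 39 hydrolase and cofactor genes were lower, with medians of 0.04, -0.03 and 0.24. Over all 12110 genes tested, 6191 were lower in Panc8, 5415 in HPAF-II and 6121 in Panc.10.05.

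Panc.10.05 had the widest spread. PDX1 was low in this line even with control siRNA, at 0.188 FPKM, and whether these ratios reflect loss of PDX1 was not tested. Of the 36 genes 22 were higher with PDX1 siRNA by any size (48.7% of all genes), and 10 of the 15 lumen genes were, with a median of 0.39 against 0.00 for all genes tested. CTSS had 35.4 FPKM with PDX1 siRNA and 11.9 FPKM with control siRNA, a log2 ratio of 1.498. CTSH had 73.7 FPKM with PDX1 siRNA and 26.6 FPKM with control siRNA, a log2 ratio of 1.44, GAA had 31.3 FPKM with PDX1 siRNA and 14.5 FPKM with control siRNA, a log2 ratio of 1.06, and CTSB had 64.0 FPKM with PDX1 siRNA and 31.6 FPKM with control siRNA, a log2 ratio of 0.995. CTSB and GAA, lower in Panc.05.04, were thus higher here. The lumen gene that stood lowest was GLA, with 11.96 FPKM with PDX1 siRNA and 18.8 FPKM with control siRNA, a log2 ratio of -0.61. Of the macrophage markers, CD14, which some carcinoma cells also express, was at 17.3 FPKM with PDX1 siRNA and 3.56 FPKM with control siRNA in this line and so was higher along with the cathepsins, while CSF1R was at 0.822 FPKM with PDX1 siRNA and 0.505 FPKM with control siRNA, ITGAM at 0.380 FPKM with PDX1 siRNA and 0.256 FPKM with control siRNA, CD163 at 0.0442 FPKM with PDX1 siRNA and 0.0564 FPKM with control siRNA and MSR1 at 0 FPKM in both. The 5 markers with a row summed to between 0.663 and 18.6 FPKM in PDX1 siRNA libraries and between 1.53 and 8.93 FPKM in control siRNA libraries. Their part in the cathepsin values was not tested. The authors' deposited table gave CTSS a p of 0.0007 with q = 0.232, CTSH a p of 0.00215, GAA 0.01655 and CTSB 0.0212 in this line.

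For the 8 membrane and pump genes the median in Panc.10.05 was -0.12, and 3 of the 8 were higher (48.7% of all genes). The separate lists had the other sign there, with a median of 0.22 and 21 of 30 higher for other lysosomal membrane proteins, and 0.07 and 8 of 14 for other V-ATPase subunits. NPC1, the membrane cholesterol transporter that receives cholesterol from NPC2, had 13.0 FPKM with PDX1 siRNA and 23.1 FPKM with control siRNA, a log2 ratio of -0.78. LAMP1, the most abundant of the 8 on average, had 68.0 FPKM with PDX1 siRNA and 97.5 FPKM with control siRNA, a log2 ratio of -0.51, and its relative LAMP2 had 50.6 FPKM with PDX1 siRNA and 45.2 FPKM with control siRNA. In the other 3 lines NPC1 lay between 0.01 and 0.21. MCOLN1, the lysosomal calcium channel, varied least between lines among the 8, from 6.07 FPKM to 9.72 FPKM over the 8 libraries.

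**Figure D4:**
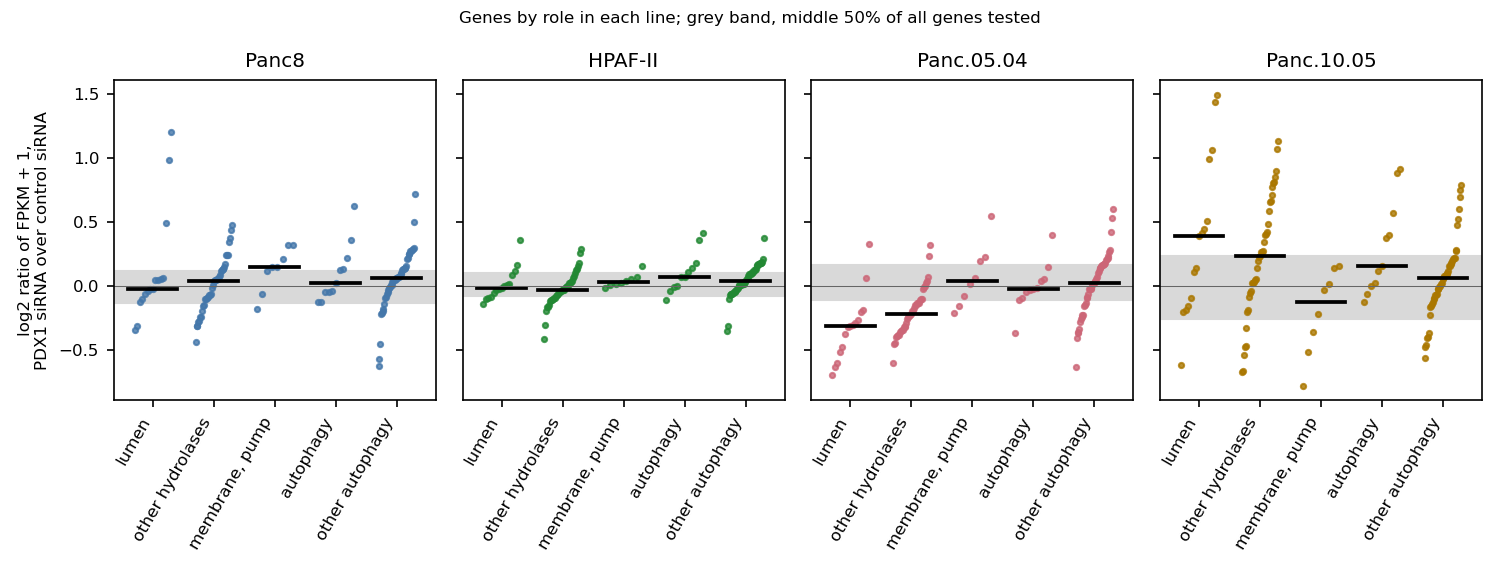
Log2 ratio of FPKM + 1, PDX1 siRNA over control siRNA, for the genes of each role and for 2 separate lists, in each line, with points for genes, black bars for medians and a grey band for the middle 50% of all genes tested. Lumen genes have a median of -0.31 in Panc.05.04 and 0.39 in Panc.10.05.

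In Panc8 the 3 genes past 1.5-fold were SGSH, CTSS and TECPR2, and 19 of 36 were higher by any size (48.2% of all genes). SGSH had 4.68 FPKM with PDX1 siRNA and 1.46 FPKM with control siRNA, a log2 ratio of 1.21, and CTSS had 36.8 FPKM with PDX1 siRNA and 18.1 FPKM with control siRNA, a log2 ratio of 0.99. CTSS is also known as an interferon-induced gene. Of 11 interferon-stimulated genes with a row of their own, 11 were higher in Panc8 with a median of 2.95, and the median was 0.43 in HPAF-II, -0.46 in Panc.05.04 and 0.76 in Panc.10.05. CTSS had log2 ratios of 0.99, 0.36, -0.20 and 1.498 in the same lines. Its sign was that of the interferon-stimulated median in each, but its largest ratio was in Panc.10.05 and not in Panc8. In Panc.05.04 the sign rests on low values, 0.271 FPKM with PDX1 siRNA and 0.464 FPKM with control siRNA. The part of interferon-stimulated genes in the CTSS values was not tested. The authors' deposited table gave SGSH a p of 0.0031 with q = 0.227 and CTSS a p of 0.00245 with q = 0.187 in Panc8. Membrane and pump genes had a median of 0.15 in Panc8, with 6 of 8 higher.

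HPAF-II, with the highest PDX1 level, had the smallest spread of ratios, for these genes as for all genes tested. PDX1 stayed at 55.9% of its control level in this line, and the part of PDX1 in the spread was not tested. By any size 24 of 36 were higher (54.4% of all genes), and the SD of the 36 log2 ratios was 0.127, against 0.317 in Panc8, 0.284 in Panc.05.04 and 0.553 in Panc.10.05. Over all genes tested the SD was 0.248 in HPAF-II, 0.408 in Panc8, 0.324 in Panc.05.04 and 0.494 in Panc.10.05. The largest ratio in HPAF-II was that of SQSTM1, 0.42, followed by TECPR2 and CTSS at 0.36 each.

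TFEB and TFE3 had opposite signs in Panc.10.05. TFEB was at 1.42, 9.48, 1.09 and 6.62 FPKM in the PDX1 siRNA libraries, against 1.58, 9.11, 1.23 and 3.39 FPKM in the control siRNA libraries. TFE3 was at 17.3, 16.4, 32.1 and 18.6 FPKM in the PDX1 siRNA libraries, against 18.3, 16.1, 30.9 and 31.2 FPKM in the control siRNA libraries. In Panc.10.05 the log2 ratio was 0.80 for TFEB and -0.72 for TFE3, and in the other 3 lines both lay between -0.10 and 0.05. The authors' Cuffdiff comparison in Panc.10.05 gave unadjusted p of 0.126 for TFEB and 0.0962 for TFE3, each with q of 0.999. TFE3 exceeded TFEB in every library. Across lines the mean log2 ratio was 0.17 ± 0.43 for TFEB and -0.18 ± 0.36 for TFE3 (SD, n = 4 each; limma adjusted p = 0.899 and 0.898). Without Panc.10.05 these means were -0.044 and 0.00016. The genes with CACGTG in the windows shown earlier had ratios of both signs in that line: the log2 ratio was 1.06 for GAA, 0.11 for CTSD, -0.03 for MCOLN1, -0.19 for CTSA, -0.36 for ATP6V0D1 and -0.51 for LAMP1. CTSH, WIPI1 and GABARAPL1, all past 1.5-fold higher in Panc.10.05, had a window without it. CTSS and CTSB, also past that size, had no window to search. The part of TFEB and TFE3 in these ratios was not tested.

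**Figure D5:**
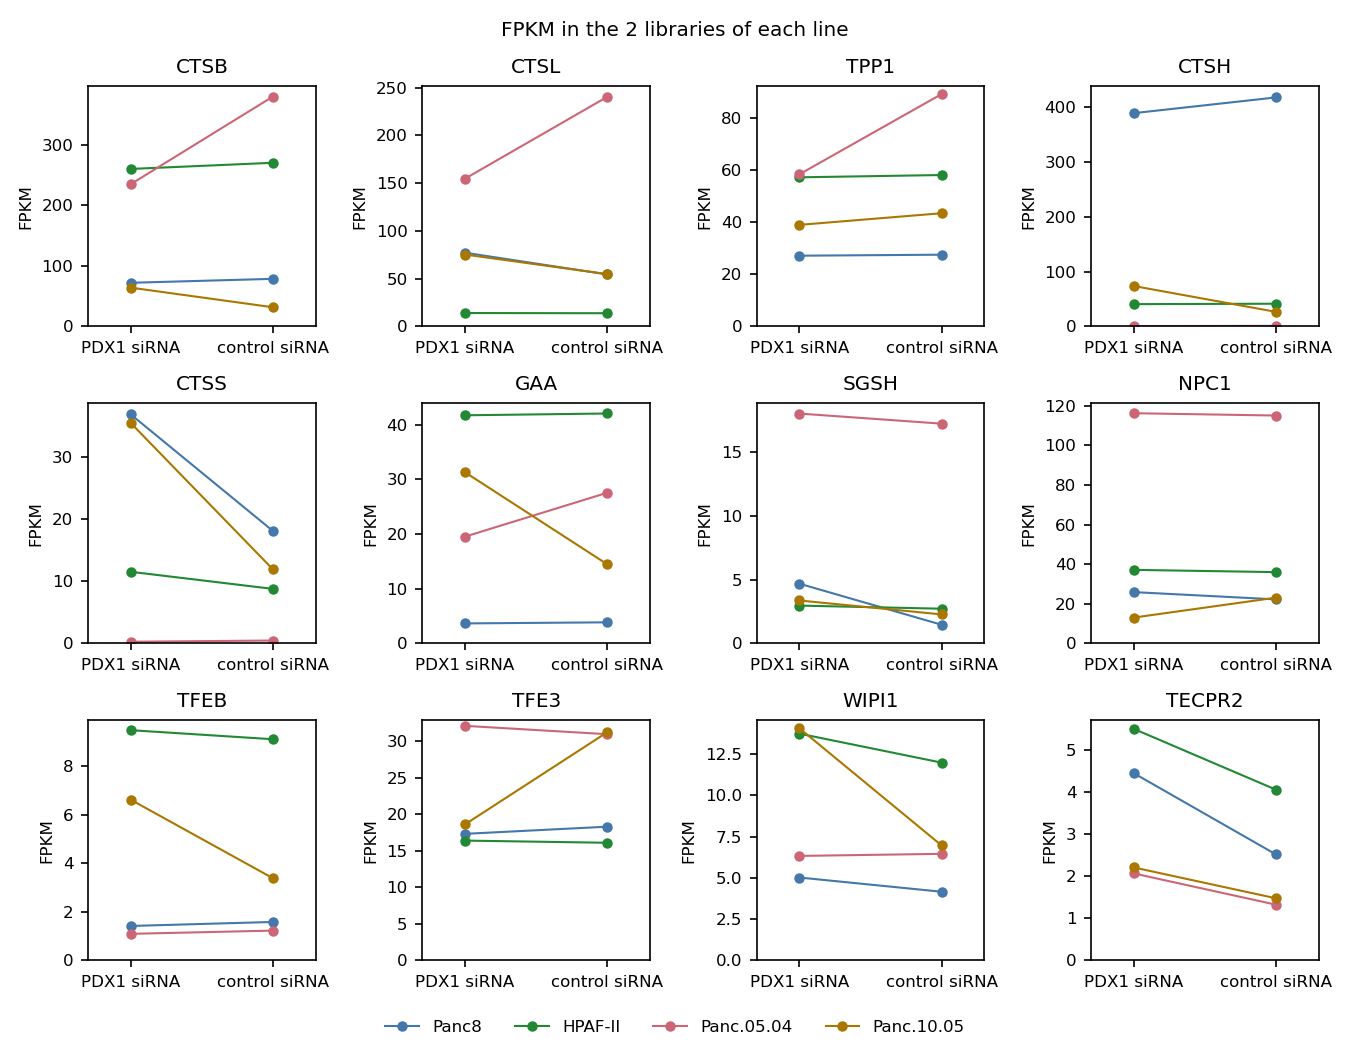
FPKM of 12 genes with PDX1 siRNA (left) and control siRNA (right), with a line joining the 2 libraries of each cell line. TFEB and WIPI1 are higher and TFE3 and NPC1 lower with PDX1 siRNA in Panc.10.05, and TECPR2 is higher in all 4 lines.

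Among the autophagy factors, 8 of 11 were higher with PDX1 siRNA in Panc.10.05, against 48.7% of all genes, and 8 of 11 in HPAF-II, against 54.4%. In Panc8 6 of 11 were higher (48.2%), and in Panc.05.04 7 of 11 were lower (42.4%). The medians over the 4 lines were 0.02, 0.08, -0.02 and 0.16. WIPI1, which binds the phosphoinositide of forming autophagosomes, was at 5.02, 13.7, 6.33 and 14.1 FPKM in the PDX1 siRNA libraries, against 4.16, 11.98, 6.46 and 6.97 FPKM in the control siRNA libraries. Its log2 ratio was 0.92 in Panc.10.05, and 0.22, 0.18 and -0.02 in the other lines. The authors' Cuffdiff comparison gave WIPI1 an unadjusted p of 0.515 in Panc.10.05. ARSG, whose annotation overlaps WIPI1, was also higher in Panc.10.05, at 3.31 FPKM with PDX1 siRNA and 1.09 FPKM with control siRNA. Whether reads were counted by strand is not stated, so reads of the overlapping stretch may be shared. The same limit holds for WIPI1 with PRKAR1A, SQSTM1 with MGAT4B, ATG7 with VGLL4 and CTSA with PLTP, whose rows share an interval. GLA also shares an interval with RPL36A and HNRNPH2, NPC1 with C18orf8, BECN1 with CNTD1 and HEXA with HEXA-AS1. The limit covers their ratios too, and levels of the genes they overlap are not given here.

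GABARAPL1, GABARAPL2 and MAP1LC3B belong to the ubiquitin-like family that is attached to lipid on autophagosomes. GABARAPL1 was at 14.1, 30.8, 19.9 and 23.9 FPKM in the PDX1 siRNA libraries, against 12.9, 27.9, 21.3 and 12.5 FPKM in the control siRNA libraries. Its control level was at least as high as in Panc.10.05 in every other line, and the log2 ratio in Panc.10.05 was 0.88. GABARAPL2 had 124 FPKM with PDX1 siRNA and 82.8 FPKM with control siRNA in Panc.10.05 and log2 ratios between -0.04 and 0.00 elsewhere. MAP1LC3B, the LC3B used to count autophagosomes, stayed between -0.12 and 0.07 on the log2 scale. It has a near-identical copy, MAP1LC3B2, with 9.97 to 48.4 FPKM in PDX1 siRNA libraries and 10.2 to 40.1 FPKM in control siRNA libraries, so the split of reads between the copies is uncertain.

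SQSTM1 had log2 ratios of 0.36, 0.42, 0.06 and -0.06, a mean of 0.19 ± 0.23 (SD, n = 4; limma adjusted p = 0.898), and 0.12 without HPAF-II. NBR1, the other cargo receptor, was at 0.40 in Panc.10.05 and between -0.05 and -0.03 elsewhere. The kinase ULK1, which starts autophagy, was at -0.36 in Panc.05.04 and between -0.01 and 0.12 in the other lines. BECN1 of the lipid kinase complex and ATG5 and ATG7 of the conjugation machinery differed by at most 0.16 in size in any line.

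Lists of 171 further pathway genes were read in the same fit, 164 of which had a single row and 156 of which were tested. In limma 0 of the 156 passed an adjusted p of 0.05, and without adjustment 3 were higher at p under 0.05 (LAMP3, ATG14 and CALCOCO2, against 2.02% of all genes tested) and 0 were lower. This count is near the background. LAMP3, a lysosomal membrane protein induced by interferon, was at 17.2, 6.03, 20.0 and 17.4 FPKM in the PDX1 siRNA libraries, against 1.08, 4.51, 13.0 and 8.97 FPKM in the control siRNA libraries. Its mean log2 ratio was 1.24 ± 1.28 (SD, n = 4; limma adjusted p = 0.898). It was higher in all 4 lines. The interferon-stimulated medians were 2.95, 0.43, -0.46 and 0.76 in the same lines, and the part of interferon in the LAMP3 values was not tested. ATG14, a subunit of the autophagy lipid kinase, had log2 ratios of 0.28, 0.09, 0.29 and 0.22, and CALCOCO2, a cargo receptor for bacteria, 0.28, 0.16, 0.17 and 0.16. Of the 156, 9 were higher in 4 of 4 lines (7.45% of all genes tested) and 6 were lower (5.8%). By list these were 7 higher and 0 lower of 46 other autophagy factors, 0 higher and 3 lower of the hydrolases and cofactors, 1 higher and 2 lower of the membrane proteins, 1 higher and 0 lower of the V-ATPase subunits and 0 higher and 1 lower of the sorting and mTORC1 genes.

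In the list of 39 other hydrolases and cofactors, MANBA, a beta-mannosidase, had a mean log2 ratio of 0.29 ± 0.56, the fucosidase FUCA1 0.24 ± 0.56, the sulfatase-modifying factor SUMF1 -0.24 ± 0.24 and the gamma-glutamyl hydrolase GGH -0.28 ± 0.28 (SD, n = 4 lines each). MANBA was at 9.21 FPKM with PDX1 siRNA and 3.65 FPKM with control siRNA and FUCA1 at 71.1 FPKM with PDX1 siRNA and 33.3 FPKM with control siRNA in Panc.10.05, and that line set both means. Among 30 other membrane proteins, SLC29A3 had a mean of 0.26 ± 0.24, the sialic acid exporter SLC17A5 0.23 ± 0.19 and OSTM1, partner of a lysosomal chloride transporter, -0.21 ± 0.28 (SD, n = 4). Other V-ATPase subunits were close to 0, with a median over lines of 0.05 for 14 tested, and the largest means were -0.15 ± 0.17 for ATP6AP2, 0.14 ± 0.18 for ATP6V0B, -0.14 ± 0.29 for ATP6V0E2 and 0.14 ± 0.12 for ATP6V1F (SD, n = 4). Of the 27 genes of lysosomal sorting and mTORC1 control, RRAGD, a Rag GTPase, had 0.20 ± 0.16, the mannose 6-phosphate receptor M6PR 0.17 ± 0.20, the sorting receptor SORT1 -0.13 ± 0.35 and GNPTG 0.13 ± 0.32 (SD, n = 4). AMBRA1 (0.22 ± 0.29) and OPTN (0.22 ± 0.35) led the other autophagy factors by size (SD, n = 4), OPTN through Panc8 with 30.6 FPKM with PDX1 siRNA and 18.2 FPKM with control siRNA.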

How the data were processed

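Per the submitters' processing notes, the tools were TopHat2 (version 2) with Cufflinks and Cuffdiff on build hg38, with roles, annotation and strandedness not given in the sources used here. Per the file headers, the authors deposited FPKM values of the control and the PDX1 siRNA library of each line, with Cuffdiff p-values and q-values that compare 2 libraries and not the conditions. Rows were joined over the 4 tables by row identifier. Ratios are on the log2(FPKM + 1) scale, where changes of low genes come out too small. The across-line fit (limma 3.58.1, R 4.3.3) took the 12110 genes whose 8 values average 1 FPKM or more, with a block for the line, trended eBayes and Benjamini-Hochberg adjustment. It had 3 residual degrees of freedom. The pairing by line comes from the labels, and deviations from the group means had r between 0.844 and 0.963 within a line. P-values measure the spread between the 4 lines. The fit was tested on simulated data.

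The members, the lists and the rules were chosen with earlier results of these data known. Named genes were PDX1, TFEB, TFE3, the 4 genes per role with the largest mean log2 ratio in size, genes past 1.5-fold in any line, genes with 1 sign in 4 lines and up to 4 genes per further list. Genes named beyond these rules, and the neighbours of PSAP, were chosen after their values were seen. List genes with several rows under 1 symbol were left out. File starts were read as counted from 0 (1 below the RefSeq start in 6173 of 21699 rows compared, equal in 585) and 1 was added. The spacing of the smallest values put the depth of the PDX1 siRNA library at 0.648 of its control in Panc8, 1.39 in HPAF-II, 0.828 in Panc.05.04 and 0.952 in Panc.10.05, as rough estimates. No counting interval is given. Python 3.11.15, numpy 2.4.6, pandas 2.3.3 and matplotlib 3.10.9 did the other steps.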

Additional observations from a re-analysis of the deposited data

Results flagged for a closer look

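Each of the 36 genes gave 3 sets of 4 values (PDX1 siRNA levels, control siRNA levels and ratios), 108 in all, and in 13 of them 1 line lay far from the other 3 by Dixon's gap criterion, which chance meets in about 1 in 20. Over all genes tested, 2966 of 36330 such sets (8.16%) did. Levels are on log2(FPKM + 1).

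PSAP in Panc8 stood apart with 0.86 in the PDX1 siRNA library and 1.17 in the control siRNA library, the only lumen gene apart in both. ATG7 in Panc.05.04 stood apart in both libraries as well, with 4.09 with PDX1 siRNA and 4.19 with control siRNA, and its ratio there was -0.10, the only one below 0. ATP6V1A was low in the PDX1 siRNA library of HPAF-II at 4.50, ATP6V1H was high in the control siRNA library of Panc.05.04 at 5.24, and CTSA was high in the control siRNA library of HPAF-II at 7.92. Ratios stood apart in Panc.10.05 for TFEB (0.80), TFE3 (-0.72), GABARAPL2 (0.58) and NBR1 (0.40), and in Panc8 for TECPR2 (0.63).

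CTSB was past 1.5-fold in opposite directions, higher in Panc.10.05 and lower in Panc.05.04, and the log2 ratios differed by 1.69. This difference was not tested, with 1 library per siRNA in each line.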

How the results depend on the processing

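The counts across lines at an adjusted p of 0.05 were 0 over all genes and 0 over the 36 in limma under all 9 alternatives (a pseudocount of 0.1, no filter, no replicate block, ratios centred on the line median, eBayes without trend, and each line left out). Without adjustment, 440 genes had p under 0.05 in the reported limma fit. There the count among the 36 was 1 as reported, 0 without the replicate block, and between 1 and 3 with a line left out: CTSS joined without Panc.05.04, and NPC2 and SQSTM1 without Panc.10.05. TECPR2 was in the count in each of the others. Of 19 named genes, 11 kept the sign of the mean log2 ratio under all 9. Among these 11, leaving out a line moved the mean by over 1.5 times for SGSH (0.19) and MCOLN1 (0.064) without Panc8, SQSTM1 (0.12) without HPAF-II, ATP6V1A (0.065) and TPP1 (-0.065) without Panc.05.04, and CTSS (0.38), LAMP1 (-0.064), WIPI1 (0.13) and GABARAPL1 (0.057) without Panc.10.05. The other 8 changed sign when a line was left out, with ranges of -0.29 to 0.27 for CTSB, -0.17 to 0.44 for CTSH, -0.054 to 0.32 for CTSL, -0.15 to 0.17 for GLA, -0.18 to 0.33 for GAA, -0.24 to 0.090 for NPC1, -0.044 to 0.25 for TFEB and -0.26 to 0.00016 for TFE3. Each of these changed sign without Panc.10.05, and CTSL also without Panc8 (-0.054). Within lines, the count of genes past the size was 1 in Panc8, 0 in Panc.05.04 and 3 in Panc.10.05 at 2-fold, and 5 in Panc.05.04 with a pseudocount of 0.1, where CTSH and TECPR2 joined. Without counts, the depth behind low genes such as CTSS in Panc.05.04 is not known.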
